A study of Mus musculus with 4 samples.

Results

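Glycolysis and the transcriptional response to low oxygen were followed through 34 genes in the skin of adult C57BL/6 mice. The set comprised glucose entry, the glycolytic enzymes, the handling of pyruvate and lactate, the hypoxia-inducible factors (HIFs) with the proteins that control them, and well-known HIF target genes. The members were chosen by gene symbol for their known function, with no cutoff on their values but with earlier results of these data known. They make up 34 of the 23203 symbols that the deposited tables list on 1 line. Of these, 31 lay above the expression filter used here, a mean log2 value above 5.10 over the 4 libraries, which 11624 genes passed. Eno1, Car9 and Ankrd37 lay below it. Their values are given, but they enter no count of higher or lower members made with this filter. They are included in the promoter shares.

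The question of the study was the role of the transcription factor EGR1 in skin exposed to house dust mite (HDM), an allergen used to model atopic dermatitis in mice. There were 4 groups with 1 library each: Egr1 knockout (KO) skin with HDM, wild-type (WT) skin with HDM, naive Egr1 KO skin and naive WT skin. All mice were on the C57BL/6 background and came, per the labels, from matings of homozygous with heterozygous parents. The detergent sodium dodecyl sulfate (SDS), which disrupts the skin barrier, is given in the treatment label of all 4 groups, the naive ones included. The HDM groups received in addition 100 mg of a cream with HDM extract on shaved neck and ears, 2 times a week for 3 weeks. The knockout is described only as Egr1-/-, with no driver or cell type, and neither the number of mice behind a library nor the sex of the mice is given in the sources used here. Libraries were made with a QuantSeq kit, which reads near the 3′ end of transcripts with a poly(A) tail. A gene's value therefore stands for its 3′ end, and levels are compared here between libraries and not between genes. Isoforms with a common 3′ end, such as the M1 and M2 forms of pyruvate kinase, are read as 1 gene.

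The recovered totals lay between 9427595 and 10107315 reads per library. No replicate stands behind a difference between 2 libraries, so it has no p-value. The 95% intervals below reflect the counting of reads alone and leave out how animals vary. A gene is called higher or lower when the 2 libraries differ by 2-fold or more, a difference of at least 1 on the deposited log2 scale. Some facts about the libraries touch every comparison. Egr1 itself was not lower in the KO-labelled libraries: its log2 value was 11.68 in KO-labelled HDM and 10.31 in WT HDM skin, against 11.53 in KO-labelled naive and 11.02 in WT naive skin. The labels do not say which part of the gene is deleted, and reads from a 3′ end outside it would check nothing, so the libraries are called KO-labelled throughout. The X-linked Xist had log2 values of 11.16 and 11.21 in the KO-labelled HDM and WT HDM libraries, against 5.26 and 3.53 in the KO-labelled naive and WT naive ones. The Y-linked Ddx3y ran the other way, with 1 read in each HDM library and log2 values of 11.15 and 10.99 in the KO-labelled and WT naive libraries. The sex-linked transcripts thus divide the libraries exactly as HDM does, and the treatment and this difference cannot be told apart. In KO-labelled naive skin, 336 genes were listed at 0 that had at least 50 reads in each other library, against 4 such genes in KO-labelled HDM, 0 in WT HDM and 5 in WT naive skin.

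Glycolysis splits glucose into pyruvate in the cytosol. Glucose enters through carriers such as GLUT1, is trapped by hexokinase, committed by phosphofructokinase, split by aldolase and converted to pyruvate by the enzymes from GAPDH to pyruvate kinase. Pyruvate is then either oxidised in mitochondria or reduced to lactate and exported. HIFs are dimers of an oxygen-labile alpha subunit with ARNT. When oxygen is present, prolyl hydroxylases mark the alpha subunit for the ubiquitin ligase protein VHL, and when it is scarce the dimer binds short DNA elements near the glycolytic genes and many others. Epidermis is a poorly perfused tissue in which proliferating keratinocytes rely on glycolysis, and recruited neutrophils are likewise glycolytic.

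The core of the HIF element is read from promoter letters as ACGTG or GCGTG. Promoter windows from 250 bases before to 50 bases after the transcription start, taken from RefSeq on GRCm38.p6, were found for 32 of the 34 members, Ero1l under its current symbol Ero1a. Epas1 and Ndrg1 had no entry. Either core, on either strand, was present for 29 of the 32 members, or 90.6%, against 46.7% of all 27025 genes with a window and 67.2% of the 8851 measured genes with one. The stricter letters ACGTG were present for 71.9% of the members, against 21.8% of all genes and 28.8% of the measured ones. The letters bound by EGR proteins, GCGTGGGCG or GCGGGGGCG on either strand, were present for 2 members, Pfkp and Kdm3a, or 6.25%, against 3.93% of all genes and 7.59% of the measured ones. The first of these EGR words contains GCGTG and so also counts as a HIF core. A match describes letters only, and the absence of one says nothing about a factor. The members are known glycolytic and HIF target genes, many of them described as such through these elements, so the share describes the choice of members and is no result of these libraries.

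The windows of 6 genes are shown, in lower case with the HIF cores on either strand in capitals, because they belong to the genes on which the results below turn. Slc16a3 (chr11:120948817-120949116, plus strand), Pgam1 (chr19:41911621-41911920, plus strand) and Pgk1 (chrX:106186850-106187149, plus strand) were higher in both HDM comparisons. Car9 (chr4:43506776-43507075, plus strand) and Ankrd37 (chr8:45999801-46000100, minus strand) are the HIF targets that were past 2-fold in both. P4ha2 (chr11:54100674-54100973, plus strand) stands beside them as a HIF target that was not higher. The first 3 and P4ha2 were picked after their values were seen. CACGT is the reverse complement of ACGTG, and CACGC that of GCGTG.
Slc16a3: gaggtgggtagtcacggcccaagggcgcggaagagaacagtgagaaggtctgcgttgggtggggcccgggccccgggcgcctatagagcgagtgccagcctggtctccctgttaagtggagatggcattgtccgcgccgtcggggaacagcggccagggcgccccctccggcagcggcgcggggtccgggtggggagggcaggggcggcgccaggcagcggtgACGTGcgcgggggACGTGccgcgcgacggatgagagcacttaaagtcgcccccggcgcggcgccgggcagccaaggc
Pgam1: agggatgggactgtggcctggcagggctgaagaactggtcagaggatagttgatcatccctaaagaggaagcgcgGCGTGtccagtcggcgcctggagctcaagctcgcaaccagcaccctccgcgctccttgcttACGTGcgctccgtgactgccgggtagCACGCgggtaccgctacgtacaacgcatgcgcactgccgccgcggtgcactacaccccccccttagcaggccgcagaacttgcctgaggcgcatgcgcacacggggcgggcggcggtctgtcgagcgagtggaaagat
Pgk1: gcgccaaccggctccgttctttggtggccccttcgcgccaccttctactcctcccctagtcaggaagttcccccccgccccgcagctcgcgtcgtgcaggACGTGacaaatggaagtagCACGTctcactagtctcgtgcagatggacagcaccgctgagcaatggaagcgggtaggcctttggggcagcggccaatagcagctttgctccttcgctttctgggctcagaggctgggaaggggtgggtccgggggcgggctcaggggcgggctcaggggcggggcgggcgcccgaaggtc
Car9: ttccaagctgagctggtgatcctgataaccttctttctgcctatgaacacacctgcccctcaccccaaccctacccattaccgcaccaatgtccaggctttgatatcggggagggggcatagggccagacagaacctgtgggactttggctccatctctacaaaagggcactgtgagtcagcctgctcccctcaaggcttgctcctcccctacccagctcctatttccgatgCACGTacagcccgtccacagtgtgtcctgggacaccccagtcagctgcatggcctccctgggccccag
Ankrd37: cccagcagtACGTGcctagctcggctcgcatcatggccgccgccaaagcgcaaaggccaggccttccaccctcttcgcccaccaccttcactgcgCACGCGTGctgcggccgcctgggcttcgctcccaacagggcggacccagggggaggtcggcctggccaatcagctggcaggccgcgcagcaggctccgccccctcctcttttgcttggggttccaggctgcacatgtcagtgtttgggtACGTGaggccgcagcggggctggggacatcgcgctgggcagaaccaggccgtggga
P4ha2: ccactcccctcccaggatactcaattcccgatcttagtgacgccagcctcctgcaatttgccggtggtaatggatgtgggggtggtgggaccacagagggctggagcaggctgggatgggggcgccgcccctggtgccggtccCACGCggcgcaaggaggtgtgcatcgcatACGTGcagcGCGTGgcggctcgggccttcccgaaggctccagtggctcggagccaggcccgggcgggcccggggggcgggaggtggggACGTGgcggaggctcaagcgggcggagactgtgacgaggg
In Slc16a3 both cores are ACGTG, 27 and 14 bases upstream of the start. In Pgam1 there are 3 cores, 175, 114 and 88 bases upstream, and in Pgk1 there are 2, 150 and 131 bases upstream. The 1 core of Car9 lies 18 bases upstream. Ankrd37 and P4ha2 hold 4 each. In Ankrd37, 2 of the 4, 155 and 152 bases upstream, are overlapping letters read on opposite strands. Whether the number of cores bears on the HDM values was not tested.

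Over all measured members, 10 were higher under HDM and 2 lower in KO-labelled skin, beside a background of 21.8% higher and 18.3% lower over all measured genes. In WT skin 12 were higher and 0 lower, beside 14.5% and 12.8% over all measured genes. Of the 17 measured members of glycolysis, pyruvate and lactate, 7 were higher and 0 lower under HDM in KO-labelled skin, and 10 higher and 0 lower in WT skin. Their log2 differences lay above 0 for 15 of the 17 in KO-labelled skin, Pfkfb3 and Pdk1 being below, and for all 17 in WT skin. Of all 11624 measured genes, 6057 lay above 0 in KO-labelled and 5982 in WT skin. As shares of the 31 measured members, 32.3% were higher in KO-labelled and 38.7% in WT skin. The median log2 difference of the members was 0.70 in KO-labelled and 0.71 in WT skin, against 0.06 and 0.03 over all measured genes. Of the 31, 23 lay above 0 in both comparisons, 3 below 0 in both and 5 on opposite sides. The members higher in both were Pfkl, Aldoa, Pgk1, Pgam1, Pkm and Slc16a3, all of which belong to glycolysis or to lactate export. For counts over both comparisons together, here and below, the share of all measured genes was not computed. Slc2a1, Ero1l, Kdm3a and Higd1a passed 2-fold in KO-labelled skin alone, and Hk2, Gpi1, Tpi1, Gapdh, Hif1a and Egln3 in WT skin alone. These differences between the genotypes were not tested.

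**Figure D1:**
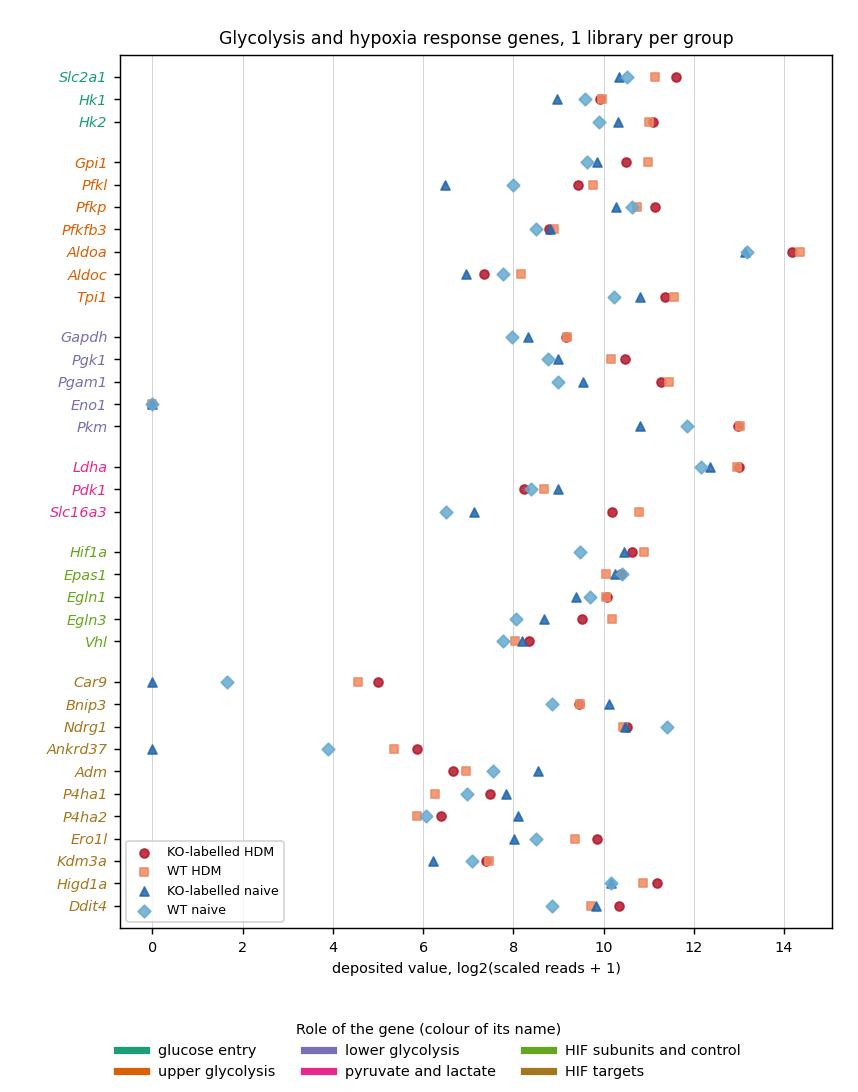
Deposited log2 value (horizontal axis) of each of the 34 genes in the 4 libraries, 1 point per library, grouped by role. The HDM points of Slc16a3 lie at 10.19 in KO-labelled and 10.79 in WT skin, far to the right of its naive points at 7.12 and 6.50, and Eno1 is at 0 in all 4 libraries.

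Glucose entry was covered by 3 members, which were all above 0 in both HDM comparisons, though 1 passed 2-fold in each. Over all measured genes 21.8% were higher in KO-labelled and 14.5% in WT skin. Slc2a1 encodes GLUT1, the basal glucose carrier. Its log2 value was 11.61 in KO-labelled HDM and 11.13 in WT HDM skin, against 10.33 in KO-labelled naive and 10.52 in WT naive skin. Both HDM libraries were above both naive ones, and the ratio was 2.42-fold (2.27 to 2.58), with the 95% counting interval in parentheses here and below, in KO-labelled and 1.53-fold (1.43 to 1.64) in WT skin. Hk2, the inducible hexokinase, had a log2 value of 11.10 in KO-labelled HDM and 11.01 in WT HDM skin, against 10.32 in KO-labelled naive and 9.91 in WT naive skin, so that the HDM libraries lay close together and above the naive ones. The ratio was 1.72-fold (1.61 to 1.84) in KO-labelled and 2.16-fold (1.99 to 2.33) in WT skin. Hk1, the hexokinase found in most tissues, differed by log2 values of 0.95 in KO-labelled and 0.39 in WT skin and passed 2-fold in neither.

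In the upper steps of glycolysis, from glucose 6-phosphate to the triose phosphates, Pfkl was the member with the greatest difference. This gene encodes the liver-type subunit of phosphofructokinase, the committing step. The gene had 733 reads in KO-labelled HDM and 811 in WT HDM skin, against 94 in KO-labelled naive and 242 in WT naive skin. Both HDM libraries were high and the KO-labelled naive library was lowest. The ratio of HDM to naive was 7.82-fold (6.30 to 9.80) in KO-labelled and 3.42-fold (2.96 to 3.97) in WT skin. Aldoa, the main aldolase outside liver and brain, had a log2 value of 14.18 in KO-labelled HDM and 14.35 in WT HDM skin, against 13.13 in KO-labelled naive and 13.17 in WT naive skin. The pattern was even across genotypes, with ratios of 2.06-fold (2.01 to 2.11) in KO-labelled and 2.27-fold (2.21 to 2.33) in WT skin. Gpi1, which isomerises glucose 6-phosphate, was 1.56-fold higher in KO-labelled and 2.56-fold higher in WT HDM skin. Tpi1, which interconverts the triose phosphates, was 1.48-fold higher in KO-labelled and 2.49-fold higher in WT HDM skin. The remaining 3 members of the upper steps stayed under 2-fold in both: the platelet-type phosphofructokinase Pfkp (log2 differences 0.87 in KO-labelled and 0.12 in WT skin), the bifunctional regulator Pfkfb3 (-0.03 and 0.42) and the brain-type aldolase Aldoc (0.40 and 0.38). Tpi1 and Pfkp overlap an exon of a gene on the other strand at their 3′ ends, so their reads are uncertain if strand was not used in counting.

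The lower steps, which yield ATP and NADH, were higher under HDM in nearly every comparison. All 4 measured members were past 2-fold in WT skin, and 3 of the 4 in KO-labelled skin. Over all measured genes 14.5% were higher in WT and 21.8% in KO-labelled skin. Pgam1, the phosphoglycerate mutase of most tissues, had a log2 value of 11.26 in KO-labelled HDM and 11.45 in WT HDM skin, against 9.54 in KO-labelled naive and 8.99 in WT naive skin. Both HDM libraries stood well above both naive ones, 3.30-fold higher (95% counting interval 3.05 to 3.58) in KO-labelled and 5.49-fold higher (95% counting interval 4.98 to 6.07) in WT skin. Pkm encodes pyruvate kinase, which makes pyruvate, and had a log2 value of 12.98 in KO-labelled HDM and 13.02 in WT HDM skin, against 10.80 in KO-labelled naive and 11.85 in WT naive skin. The HDM libraries were nearly equal, and the naive ones were not, so the ratio was 4.55-fold (4.33 to 4.79) in KO-labelled and 2.25-fold (2.16 to 2.34) in WT skin. Pgk1, the X-linked phosphoglycerate kinase, had 1520 reads in KO-labelled HDM and 1064 in WT HDM skin, against 546 in KO-labelled naive and 411 in WT naive skin, with ratios of 2.79-fold (2.53 to 3.09) and 2.64-fold (2.36 to 2.97) in KO-labelled and WT skin. It lies on the chromosome whose Xist transcript divides the libraries in the same way, and whether that bears on its value was not tested. Gapdh, which oxidises glyceraldehyde 3-phosphate, was 1.81-fold higher in KO-labelled and 2.33-fold higher in WT HDM skin. Its 3′ end is matched at 95% identity or more by transcripts of 120 other genes, so its reads are uncertain. Eno1 was listed at 0 in all 4 libraries. The near-identical Eno1b was listed on 2 lines, whose log2 values lay between 9.89 and 10.03 in the HDM libraries and between 8.94 and 9.11 in the naive ones. Their HDM differences were 0.84 and 0.93 in KO-labelled and 0.95 on both lines in WT skin. The last 300 bases of Eno1 and Eno1b are 99.7% identical over 297 bases, so the tables do not separate enolase 1 from its copy.

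Pyruvate and lactate were covered by 3 members, and Slc16a3 had the greatest HDM difference of all 31 in either genotype. It encodes MCT4, the proton-linked transporter with which glycolytic cells export lactate. The gene had 1244 reads in KO-labelled HDM and 1646 in WT HDM skin, against 148 in KO-labelled naive and 85 in WT naive skin. Every HDM value was several times every naive value, with ratios of 8.43-fold (7.11 to 10.1) in KO-labelled and 19.8-fold (15.9 to 24.9) in WT skin. Ldha, which reduces pyruvate to lactate, was abundant and shifted less, with a log2 value of 13.00 in KO-labelled HDM and 12.95 in WT HDM skin, against 12.35 in KO-labelled naive and 12.15 in WT naive skin. Its ratios were 1.57-fold (1.52 to 1.62) in KO-labelled and 1.74-fold (1.67 to 1.80) in WT skin, both under 2-fold. Pdk1, the kinase that shuts pyruvate out of oxidation by inactivating pyruvate dehydrogenase, lay apart from them. It had a log2 value of 8.23 in KO-labelled HDM and 8.67 in WT HDM skin, against 8.99 in KO-labelled naive and 8.39 in WT naive skin. It was 1.69-fold lower (95% counting interval 1.47 to 1.95) under HDM in KO-labelled skin and 1.22-fold higher (95% counting interval 1.05 to 1.42) in WT skin, 2 differences on opposite sides of 0 and under 2-fold.

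**Figure D2:**
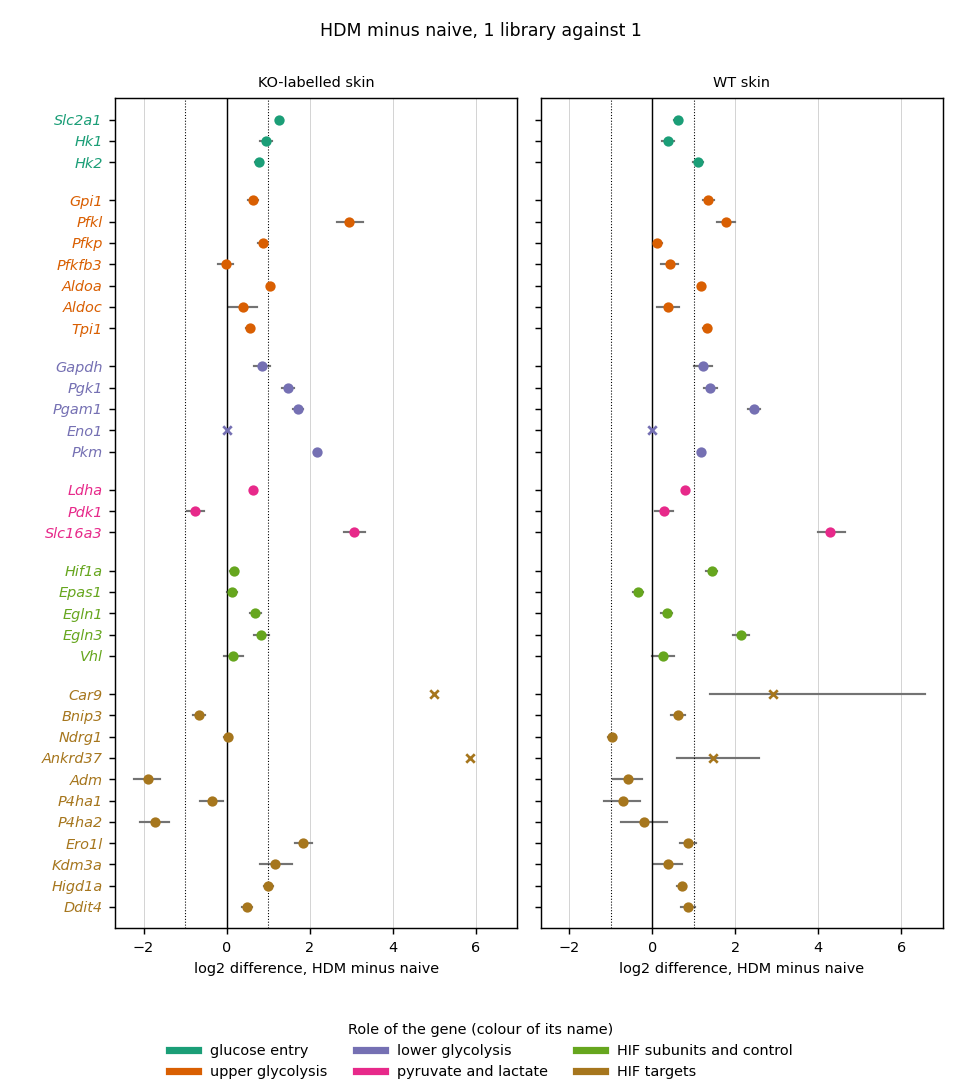
Log2 difference HDM minus naive for each member in KO-labelled and in WT skin, with 95% counting intervals as bars, dotted lines at 2-fold and crosses for the 3 genes below the expression filter. The glycolytic genes lie mostly right of 0, from 3.07 (Slc16a3) down to -0.03 (Pfkfb3) in KO-labelled skin apart from Pdk1 at -0.76, while the HIF targets lie on both sides.

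Of the 5 HIF subunits and regulators, 2 were higher under HDM in WT skin and 0 in KO-labelled skin. Over all measured genes 14.5% were higher in WT and 21.8% in KO-labelled skin. The difference between the genotypes rests on 5 genes and was not tested. Hif1a encodes the HIF-1 alpha subunit, whose protein is controlled mainly by hydroxylation and not by transcript level. Its log2 value was 10.62 in KO-labelled HDM and 10.91 in WT HDM skin, against 10.45 in KO-labelled naive and 9.48 in WT naive skin. The WT naive library was low and the other 3 close together, so the ratio was 1.13-fold (1.05 to 1.21) in KO-labelled and 2.69-fold (2.46 to 2.94) in WT skin. Egln3 encodes PHD3, a prolyl hydroxylase that is itself a HIF target. It had a log2 value of 9.52 in KO-labelled HDM and 10.19 in WT HDM skin, against 8.68 in KO-labelled naive and 8.06 in WT naive skin, with both HDM libraries above both naive ones and ratios of 1.79-fold (1.59 to 2.02) in KO-labelled and 4.39-fold (3.83 to 5.06) in WT skin. Epas1, which encodes the HIF-2 alpha subunit, had a log2 difference of 0.13 in KO-labelled skin and was 1.28-fold lower (95% counting interval 1.17 to 1.39) in WT HDM skin. Egln1, the prolyl hydroxylase PHD2, differed by log2 values of 0.70 and 0.35 in KO-labelled and WT skin, and Vhl by 0.16 and 0.25.

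The HIF targets outside glycolysis lay on both sides of 0. Under HDM, 3 of the 9 measured stood higher in KO-labelled skin and 2 lower, and 0 passed 2-fold in WT skin. The shares in KO-labelled skin are 33.3% higher and 22.2% lower, near the 21.8% and 18.3% of all measured genes, so this split is no result about the targets. Their median log2 difference was 0.04 in KO-labelled and 0.38 in WT skin. Ero1l, an oxidase that forms disulfide bonds in the endoplasmic reticulum, had a log2 value of 9.85 in KO-labelled HDM and 9.36 in WT HDM skin, against 8.01 in KO-labelled naive and 8.50 in WT naive skin. It was 3.60-fold higher (95% counting interval 3.15 to 4.13) under HDM in KO-labelled and 1.81-fold higher (95% counting interval 1.59 to 2.08) in WT skin. The histone demethylase gene Kdm3a was 2.27-fold higher in KO-labelled HDM skin, with a log2 difference of 0.38 in WT skin. Higd1a, a mitochondrial inner-membrane protein, was only just past the limit, with log2 differences of 1.01 in KO-labelled and 0.71 in WT skin.

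Adm and P4ha2 were the 2 members lower under HDM, both in KO-labelled skin. Adm encodes the vasodilator peptide adrenomedullin and had a log2 value of 6.65 in KO-labelled HDM and 6.95 in WT HDM skin, against 8.56 in KO-labelled naive and 7.54 in WT naive skin, with the KO-labelled naive library highest, and it was 3.77-fold lower (95% counting interval 3.04 to 4.72) under HDM in KO-labelled skin. P4ha2 encodes a prolyl 4-hydroxylase subunit for collagen. Its log2 value was 6.39 in KO-labelled HDM and 5.86 in WT HDM skin, against 8.11 in KO-labelled naive and 6.06 in WT naive skin. The KO-labelled naive library stood apart from the other 3, and the gene was 3.33-fold lower (95% counting interval 2.62 to 4.28) under HDM in KO-labelled skin against a log2 difference of -0.19 in WT skin. Its relative P4ha1 was below 0 in both, with log2 differences of -0.36 and -0.72 in KO-labelled and WT skin. Summed over 6 fibroblast markers, Col1a1, Col1a2, Col3a1, Dcn, Pdgfra and Lum, the scaled reads were 50717 in KO-labelled HDM and 70620 in WT HDM skin, against 373457 in KO-labelled naive and 191594 in WT naive skin. That list and the collagen hydroxylases were thus both highest in KO-labelled naive skin, and its part in their values was not tested.

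Bnip3, a mitophagy receptor, was 1.58-fold lower (95% counting interval 1.44 to 1.74) under HDM in KO-labelled skin and 1.54-fold higher (95% counting interval 1.36 to 1.74) in WT skin. The 3′ end overlaps an exon of a gene on the other strand, as do those of Ndrg1 and Ankrd37. Its log2 value was 9.45 in KO-labelled HDM and 9.48 in WT HDM skin, against 10.11 in KO-labelled naive and 8.86 in WT naive skin, with the 2 HDM libraries alike and the 2 naive ones apart. Ndrg1, a stress and differentiation gene, had log2 differences of 0.04 in KO-labelled and -0.96 in WT skin, the second just under 2-fold lower. Ddit4, which restrains mTORC1, differed by 0.50 and 0.86 in the same order.

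The 2 targets below the filter were seen mainly under HDM. Car9, the membrane carbonic anhydrase that is a standard hypoxia marker, had 33 reads in KO-labelled HDM and 21 in WT HDM skin, against 0 in KO-labelled naive and 2 in WT naive skin. With 0 reads taken as up to 3 and the 33 reads as exact, that is at least 11.0-fold higher under HDM in KO-labelled skin, where the 95% counting interval of the ratio starts at 8.48. The gene was 10.7-fold higher (95% counting interval 2.62 to 94.3) in WT skin. Ankrd37, a small ankyrin-repeat HIF target, had 61 reads in KO-labelled HDM and 37 in WT HDM skin, against 0 in KO-labelled naive and 13 in WT naive skin. By the same reckoning it was at least 20.4-fold higher under HDM in KO-labelled skin, where the counting interval starts at 16.1. It was 2.91-fold higher (95% counting interval 1.51 to 5.96) in WT skin. The ratios in KO-labelled skin rest on the library in which 336 well-covered genes were listed at 0, and hold only if 3 reads is a fair limit there.

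The only test available came from limma, with terms for HDM and for genotype, over all 4 libraries and all 11624 measured genes. Its error has 1 residual degree of freedom per gene, the departure from additivity, and is moderated towards that of genes of like level. With 1 library per group, its p-values do not measure how animals vary. The HDM term also cannot be told apart from the split of the libraries by Xist and Ddx3y. Under HDM, 4 members rose and 0 fell at an adjusted p under 0.05, where 2.25% of all measured genes rose and 1.86% fell. Slc16a3 rose by 3.68 on the log2 scale (SE 0.46, limma adjusted p = 0.00398), Pgam1 by 2.09 (SE 0.35, adjusted p = 0.0144), Pfkl by 2.36 (SE 0.48, adjusted p = 0.0312) and Pkm by 1.68 (SE 0.35, adjusted p = 0.0339). In the GENCODE M21 annotation of GRCm38, Slc16a3 lies at chr11:120948480-120960868, Pgam1 at chr19:41911923-41918660, Pfkl at chr10:77986947-78010083 and Pkm at chr9:59656368-59679375, all protein-coding. All 4 were higher in both HDM libraries than in the naive library of the same genotype. That is no added support, since the HDM term is the mean of the 2 differences and its error reflects their disagreement. Pgk1 (limma adjusted p = 0.0602) and Aldoa (limma adjusted p = 0.104) missed the threshold. At an unadjusted p under 0.05 there were 15 members higher and 0 lower, beside 11.7% and 8.69% of all measured genes. The count of 4 depends on the settings: it was 0 without the expression filter and 0 without the intensity trend, where few genes of any kind passed, and 8 with a filter at a mean above 7.

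Within some steps, isoforms lay on opposite sides of 0. Others lay on the same side in both genotypes: Hk1 with Hk2, Pfkp with Pfkl, Aldoa with Aldoc, and Slc16a1 with Slc16a3. The third hexokinase, Hk3, had log2 differences of -1.48 in KO-labelled and 0.32 in WT skin, opposite to Hk1 and Hk2 in KO-labelled skin alone. Pfkfb2 had -1.21 and -0.95 and Pfkfb4 had 2.60 and 1.32, with Pfkfb3 between them. At phosphofructokinase the log2 differences under HDM were 2.95 and 1.77 for the liver type Pfkl in KO-labelled and WT skin, and -1.17 and -0.33 for the muscle type Pfkm. At phosphoglycerate mutase the widely expressed Pgam1 had 1.72 and 2.46, and the muscle form Pgam2 had -0.61 and -0.85. Lactate dehydrogenase A had 0.65 and 0.80, while Ldhb, the form that favours lactate oxidation, had 0.23 and -1.40, on the opposite side in WT skin alone. The muscle enolase Eno3 had -0.75 and -0.57, on the same side as Eno2 at -0.17 and -0.87. These pairs were picked after their values were seen, and the difference within a pair was not tested.

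**Figure D3:**
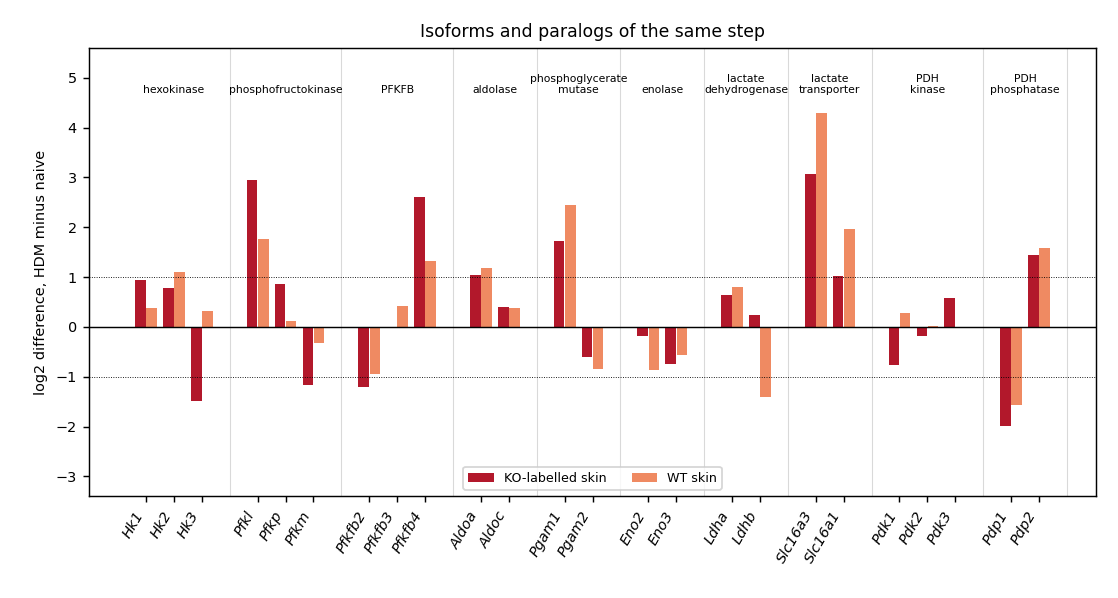
Log2 difference HDM minus naive for isoforms and paralogs of the same step, KO-labelled bars left of WT bars, dotted lines at 2-fold. Within phosphofructokinase Pfkl lies at 2.95 and 1.77 and Pfkm at -1.17 and -0.33 in KO-labelled and WT skin.

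Markers of several cell types differed between the libraries. In whole skin, fewer cells of a type and less RNA per cell cannot be told apart. All 10 skeletal muscle markers (Acta1, Ckm, Myh4, Myh1, Tnnt3, Myl1, Mylpf, Eno3, Pgam2 and Pygm) were detected in every library. Of these, KO-labelled HDM skin had 0 higher and 1 lower by 2-fold and WT HDM skin 1 higher and 2 lower. Their summed scaled reads were 44632 in KO-labelled HDM and 33990 in WT HDM skin, against 56381 in KO-labelled naive and 45460 in WT naive skin. Eno3 and Pgam2 are also among the isoforms above, so this list is not separate from those values. All 5 markers of activated keratinocytes (Krt6a, Krt6b, Krt16, Krt17 and Sprr1b) were higher in both HDM comparisons. They summed to 262697 scaled reads in KO-labelled HDM and 243003 in WT HDM skin, against 1487 in KO-labelled naive and 3681 in WT naive skin. Over 6 neutrophil markers, among them S100a8 and S100a9, the sums were 77651 in KO-labelled HDM and 199993 in WT HDM skin, against 3.74 in KO-labelled naive skin, where 4 of the 6 were at 0, and 687 in WT naive skin. Of the 6, 4 passed the expression filter. Whole skin does not show which cells these transcripts came from, so the sums are no measure of neutrophil number. Over 5 hair follicle keratins the sums were 32656 and 16349 in KO-labelled and WT HDM skin, against 154 and 143 in KO-labelled and WT naive skin, with 4 of the 5 at 0 in KO-labelled naive skin. The 5 basal keratinocyte markers, which include Krt5 and Krt14, were present in all libraries and summed to 125199 in KO-labelled HDM and 137895 in WT HDM skin, against 28764 in KO-labelled naive and 50813 in WT naive skin. By the 2-fold rule KO-labelled HDM skin had 3 of these 5 higher and 1 lower, and WT HDM skin 2 higher and 1 lower. The 5 suprabasal markers, Krt1, Krt10, Lor, Dsg1a and Dsc1, were detected in every library as well, and summed to 16973 in KO-labelled HDM and 66557 in WT HDM skin, against 74961 in KO-labelled naive and 93140 in WT naive skin. They were split, with 1 higher and 3 lower in KO-labelled HDM skin and 3 higher and 1 lower in WT HDM skin. Lor differed by -3.93 in KO-labelled and -2.42 in WT skin, Krt10 by -1.17 and 1.01, and Krt1 by 3.79 and 4.63. Over 8 salivary or lacrimal secretory markers the sums were 72.3 in KO-labelled HDM and 701 in WT HDM skin, against 70193 in KO-labelled naive and 641922 in WT naive skin, with 4, 2, 2 and 1 of the 8 at 0 in that order. Over 7 cartilage markers they were 54.5 in KO-labelled HDM and 15286 in WT HDM skin, against 20864 in KO-labelled naive and 26044 in WT naive skin, with 4, 2, 2 and 1 of the 7 at 0. The secretory sums thus also separate HDM from naive libraries. The cartilage sums set KO-labelled HDM skin apart, with WT HDM skin much nearer to the naive libraries. Beta-actin, Actb, looked up after the other values were known, differed by 1.18 and 1.31 on the log2 scale in KO-labelled and WT skin. Adipocyte sums were 9116 and 4415 in KO-labelled and WT HDM skin, against 33276 and 9397 in KO-labelled and WT naive skin. Macrophage sums were 3138 and 4385, against 5354 and 1985 in the same order. Erythrocyte and endothelial sums were higher under HDM in both genotypes. The activated keratinocyte, neutrophil, hair follicle and Actb values were higher in the same libraries as the glycolytic members, and the secretory, cartilage, fibroblast and adipocyte sums lower. Their part in the members' differences was not tested.

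Glycolysis genes outside the members lay on both sides of 0. Of 28 further glycolysis and glycogen genes, 20 were measured. KO-labelled skin had 4 higher and 5 lower under HDM, and WT skin 4 higher and 1 lower, where all measured genes had the shares of 21.8% and 18.3% in KO-labelled and 14.5% and 12.8% in WT skin. The median log2 differences were -0.17 in KO-labelled and -0.15 in WT skin. The 5 lower in KO-labelled skin were Slc2a3, Hk3, Pfkfb2, Pfkm and Pygl, and the 1 lower in WT skin was Ldhb. Slc2a3, a glucose carrier, differed by -2.40 in KO-labelled and -0.78 in WT skin. Hk3 differed by -1.48 and 0.32 in the same order, and Pfkfb2 by -1.21 and -0.95. Of the 20 measured, 4 were higher in both. Pfkfb4, a bifunctional regulator of phosphofructokinase that HIF induces, differed by 2.60 and 1.32 in KO-labelled and WT skin. Slc16a1, the lactate transporter MCT1, differed by 1.02 and 1.96. Adpgk, an ADP-dependent glucokinase, differed by 1.93 and 1.22, and the phosphoglucomutase gene Pgm1 by 1.64 and 1.31. Both lactate transporters were thus higher in both HDM libraries.

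Among 38 further genes of HIF control and HIF targets, 33 were measured. KO-labelled skin had 7 higher and 9 lower under HDM, and WT skin 6 higher and 3 lower, with median log2 differences of -0.11 in KO-labelled and 0.21 in WT skin. Fam162a, a HIF-induced mitochondrial gene, differed by 3.32 and 1.85 in KO-labelled and WT skin. Car12, a membrane carbonic anhydrase like Car9, differed by 3.33 and 1.46. The angiogenic factor Vegfa differed by 3.01 and 1.65, and the transferrin receptor gene Tfrc by 2.04 and 1.18. In the limma fit these 4 rose, with adjusted p of 0.0116 for Fam162a, 0.0276 for Car12, 0.0351 for Vegfa and 0.0368 for Tfrc. Lower in both were Ppfia4, a liprin gene (-4.08 and -2.85 in KO-labelled and WT skin), Lox, which cross-links collagen (-1.42 and -1.61), and Ppp1r3c, a glycogen-targeting phosphatase subunit (-1.32 and -1.02). Ppfia4 and Lox fell in the limma fit, with adjusted p of 0.0204 and 0.0350. The shares of the list, 21.2% higher and 27.3% lower in KO-labelled skin and 18.2% and 9.09% in WT skin, lie near those of all measured genes, 21.8% and 18.3% in KO-labelled and 14.5% and 12.8% in WT skin.

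The fate of pyruvate beyond lactate was read from 24 genes of pyruvate oxidation and the citric acid cycle, all measured. KO-labelled skin had 4 higher and 3 lower under HDM, and WT skin 2 higher and 2 lower. The median log2 differences were 0.22 in KO-labelled and -0.19 in WT skin. As shares of the list, the KO-labelled counts come to 16.7% and 12.5%, where all measured genes had 21.8% and 18.3%. The WT counts come to 8.33% each way, where all measured genes had 14.5% and 12.8%. Every share of the list was below that of all measured genes, so these counts are no result about the list. In KO-labelled skin Dlat, the E2 component of pyruvate dehydrogenase, was highest at 1.47 and Pdp1 lowest at -1.996. In WT skin Sdhd, a succinate dehydrogenase subunit, was highest at 2.81, and Pdp1 again lowest at -1.57. Pdp1 encodes the phosphatase that reactivates pyruvate dehydrogenase, the reaction that opposes Pdk1. It fell in the limma fit (adjusted p = 0.0360, log2 change -1.79).

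**Figure D4:**
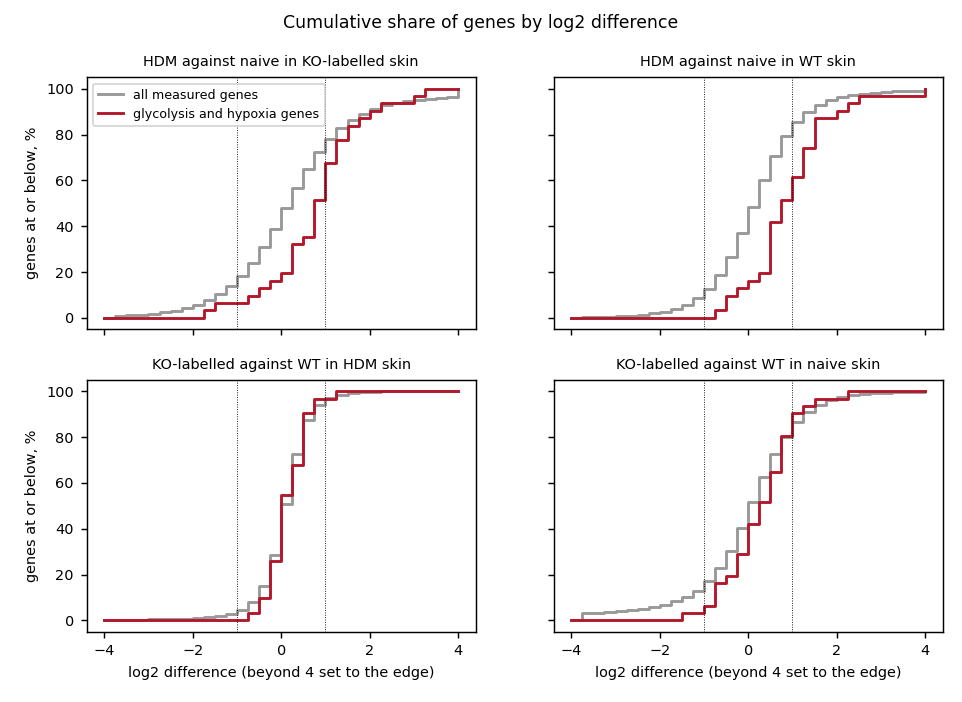
Cumulative share of genes (vertical axis, percent) by log2 difference (horizontal axis) for the measured members and for all 11624 measured genes, in each of the 4 comparisons. In both HDM comparisons the members' curve lies to the right, with medians of 0.70 and 0.71 against 0.06 and 0.03, and in KO-labelled against WT HDM skin the curves lie close together, with medians of -0.03 and -0.01.

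Between genotypes under HDM, few members passed 2-fold, as did few of all measured genes. In KO-labelled HDM skin 1 member was higher than in WT HDM skin and 0 were lower, or 3.23% and 0%. Over all measured genes 3.06% were higher and 4.67% lower, so these counts are no result about the members. The median log2 difference was -0.03 for the members and -0.01 for all measured genes. The 1 member was P4ha1, a catalytic subunit of collagen prolyl 4-hydroxylase, at 2.35-fold higher (95% counting interval 1.78 to 3.14), with log2 values of 7.48 in KO-labelled HDM and 6.26 in WT HDM skin, against 7.84 in KO-labelled naive and 6.97 in WT naive skin. The 17 measured members of glycolysis, pyruvate and lactate lay between -0.81 (Aldoc) and 0.48 (Slc2a1), 5 above 0 and 12 below, of which Hk1, Gapdh and Pkm turned above 0 under scaling to total reads. Aldoc was 1.76-fold lower (95% counting interval 1.45 to 2.14) in KO-labelled HDM skin. Slc16a3 followed at -0.60 and Gpi1 at -0.49, while Aldoa was at -0.18, Pgam1 at -0.18, Ldha at 0.05 and Pgk1 at 0.32. Pkm was at -0.03, and at 0.07 under that scaling. Among the HIF regulators Egln3 was at -0.66. The cartilage sums, 54.5 in KO-labelled HDM and 15286 in WT HDM skin, also differed between these libraries. Their part in these values was not tested.

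More members passed 2-fold between the naive libraries, as did more of all measured genes. In the KO-labelled library 3 members were higher and 2 lower, or 9.68% and 6.45%. Over all measured genes 13.7% were higher and 17.1% lower, so the members' shares were below those of all genes. The median log2 difference was 0.24 for the members and -0.03 for all. P4ha2 was 4.20-fold higher (95% counting interval 3.19 to 5.62), Bnip3 2.38-fold higher (95% counting interval 2.13 to 2.66) and Adm 2.03-fold higher (95% counting interval 1.70 to 2.44) in KO-labelled naive skin. Pfkl was 2.90-fold lower (95% counting interval 2.28 to 3.73) and Pkm 2.07-fold lower (95% counting interval 1.96 to 2.19). Ankrd37, below the filter, had 0 reads in KO-labelled and 13 in WT naive skin, which is at least 4.89-fold lower by the same reckoning, with a counting interval that starts at 3.44, subject to the same limit on zeros. The salivary or lacrimal sums given above also differed between the naive libraries, and their part in these values was not tested. With each library scaled to its total reads in place of the deposited scale, 5 members were higher and 1 lower.

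For Pfkl and Pkm, the higher HDM ratio in KO-labelled skin goes with a lower KO-labelled naive library, since the HDM libraries of the 2 genotypes differed by -0.34 and -0.03 on the log2 scale. Both HDM comparisons remained past 2-fold for both genes. The HDM comparison and the naive genotype comparison share the KO-labelled naive library, so they are not separate pieces of evidence. For the genotype term of the limma fit, 0 members and 0 genes passed an adjusted p under 0.05, which is 0.0% in each direction. At an unadjusted p under 0.05, 101 genes (0.869%) were higher in KO-labelled skin, 1 of them a member, and 281 (2.42%) were lower, 0 of them members.

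**Figure D5:**
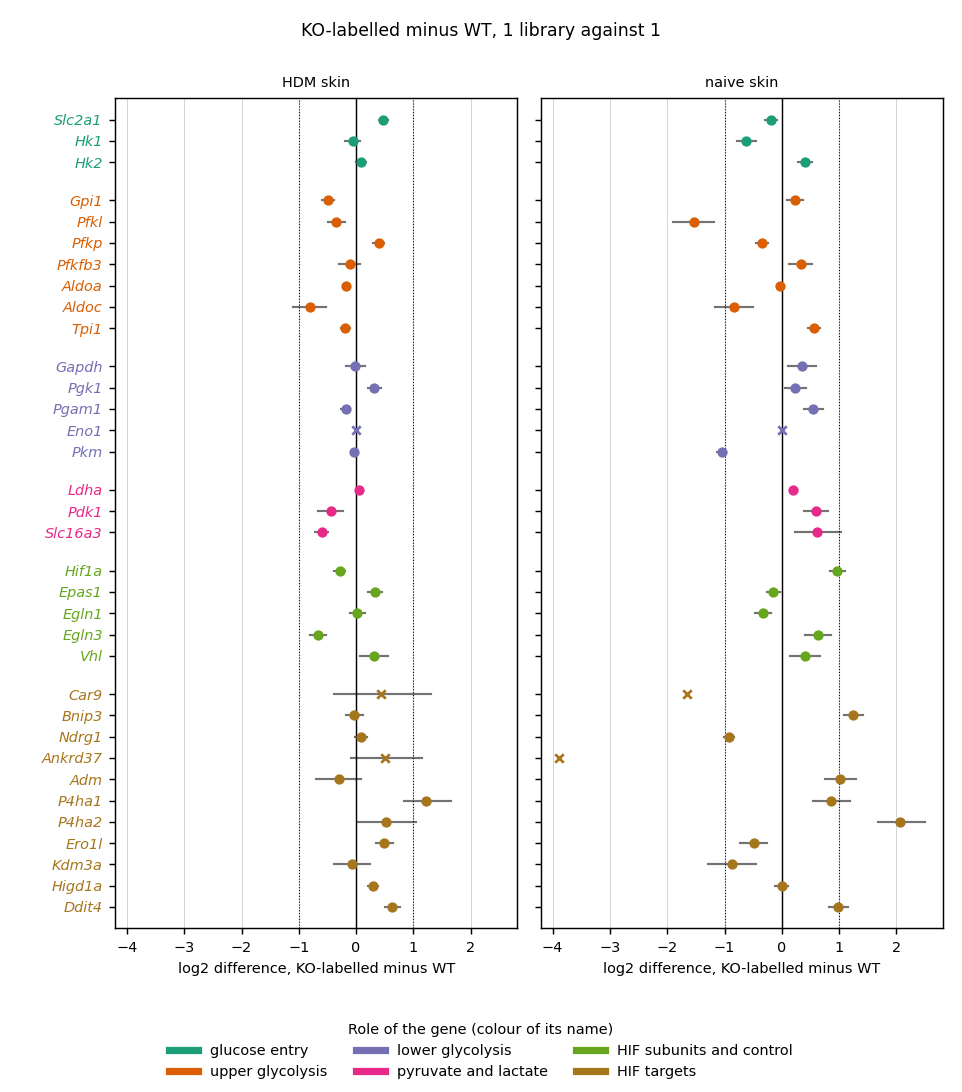
Log2 difference KO-labelled minus WT for each member in HDM skin (left) and naive skin (right), with 95% counting intervals as bars, dotted lines at 2-fold and crosses for genes below the filter. In HDM skin P4ha1 at 1.22 is the only measured member past 2-fold, and in naive skin the measured members run from -1.53 (Pfkl) to 2.06 (P4ha2).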

How the data were processed

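RNA from 4 skin libraries, 500 ng of total RNA each per the labels' protocols, was made into QuantSeq 3′ libraries. Each library has a table, deposited by the authors, of 23282 gene symbols with log2 values to 3 decimals. Per the submitters' processing notes, reads were handled with Bowtie2 and bedtools on mm10, of which neither version nor role is stated. How libraries were scaled, which annotation was used and whether genes were filtered is not stated in the labels. The low values fall on whole multiples of a step (0.939 in KO-labelled HDM, 1.078 in WT HDM, 0.936 in KO-labelled naive and 1.056 in WT naive), so the deposited log2 values were read as log2(x + 1), with x the scaled reads. Dividing by the step gave the reads. Of the genes with up to 200 reads, 96.2% to 99.1% per library came out whole within 0.1 read. The totals were 10107315 reads in KO-labelled HDM, 9427595 in WT HDM, 9926595 in KO-labelled naive and 9591074 in WT naive skin. Larger read numbers are approximate, since 3 decimals limit them.

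The work used R 4.3.3 with limma 3.58.1, and scipy 1.17.1, pandas 2.3.3 and numpy 2.4.6 under Python 3.11.15. Symbols on more than 1 line were left out (35 symbols on 79 lines), and a gene was measured when its mean lay above the median of all lines, 5.10. Each comparison is a difference of log2 values of 2 libraries. The size rule is a 2-fold difference, and ratios of reads have exact conditional 95% Clopper-Pearson intervals. Reads carry no molecular identifiers here, so intervals and the limit of 3 reads for a count of 0 cover counting error only. The limma fit used treatment and genotype terms, a trend on intensity and p-values adjusted by Benjamini-Hochberg over 11624 genes (prior degrees of freedom 7.93). With 1 library per group, nothing says how far libraries of a group differ.

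The members and lists were chosen with earlier results of these data known. All 34 members are accounted for. Of the further pathway genes, those past 2-fold in 1 direction in both HDM comparisons are named, up to 8 by mean difference, and of the pyruvate list the extreme in each direction. The last 300 bases of each member's principal protein-coding transcript were compared with GENCODE M21 transcripts by blastn: 2 members had a copy of at least 95% identity over 100 bases (Gapdh and Eno1), and 5 overlapped an exon on the other strand (Pfkp, Tpi1, Bnip3, Ndrg1 and Ankrd37), so that their reads are uncertain if strand was not used. Alternatives were other scalings, another pseudocount, other filters, a value of 3 reads for 0, other limma settings and the leaving out of uncertain 3′ ends.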

Additional observations from a re-analysis of the deposited data

Results flagged for a closer look

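For 3 measured members the HDM difference lay on opposite sides of 0 in the 2 genotypes, with counting intervals that exclude 1 in both. For Bnip3 the log2 difference was -0.66 in KO-labelled and 0.62 in WT skin, so that the KO-labelled response minus the WT response was -1.28. For Pdk1 the differences were -0.76 in KO-labelled and 0.28 in WT skin, a response difference of -1.04. For Epas1 they were 0.13 and -0.35, a response difference of 0.48. With 1 library per group the difference between the genotypes was not tested. Bnip3 overlaps an exon of a gene on the other strand at its 3′ end. The KO-labelled naive values of Bnip3 and Pdk1 were the highest of the 4 libraries, which touches both the HDM and the naive genotype comparison.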

How the results depend on the processing

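Of 36 member values past 2-fold, those of Car9 and Ankrd37 included, none turned its sign. Under each other scaling, pseudocount or value for 0, 34 or 35 of them stayed past 2-fold. Of the 124 differences of measured members, 7 turned their sign, all in the genotype comparisons and none over 0.064 on the log2 scale: Hk1, Gapdh, Pkm, Bnip3 and Kdm3a in HDM skin and Aldoa and Higd1a in naive skin. Higd1a in KO-labelled HDM skin fell under 2-fold with 3 scalings (0.98 to 0.99 on the log2 scale) and Pkm in naive skin under scaling to total reads (-0.93). Car9 in naive skin did so with a pseudocount of 5 (-0.51) and with 3 reads for 0 (-0.13). Counts of members in KO-labelled against WT naive skin moved to 3 higher and 4 lower without the expression filter, and to 5 higher and 1 lower under scaling to total reads, against 3 higher and 2 lower. In KO-labelled skin the count lower under HDM was 1 with a filter at a mean above 7, against 2. With WT naive in place of KO-labelled naive skin, added after seeing the data, it was 0, and 15 were higher against 10. In WT skin 1 was lower under scaling to the total without secretory genes and Rn45s, against 0. The limma count of 4 was 0 without the filter, 0 without the trend and 8 with a mean above 7, and the cause was not tested. Leaving out the members with uncertain 3′ ends, likewise added later, gave 10 higher and 2 lower in KO-labelled and 10 higher and 0 lower in WT skin. No fit with a library left out could be made, since the additive fit needs all 4. No paired analysis was possible because each group holds 1 library. Depth limits Car9 and Ankrd37, with 0 to 61 reads.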

Other observations

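Glycogen genes of the pathway list, described here after their values were seen, ran in different directions. Pygl, the liver-type glycogen phosphorylase, had a log2 value of 7.74 in KO-labelled HDM and 7.89 in WT HDM skin, against 9.24 in KO-labelled naive and 8.58 in WT naive skin, with both HDM libraries below both naive ones. Its log2 difference under HDM was -1.50 in KO-labelled and -0.69 in WT skin. Gys1, glycogen synthase, differed by -0.53 in KO-labelled and 0.41 in WT skin, and the branching enzyme gene Gbe1 by 0.17 and 0.02. Among the pyruvate dehydrogenase phosphatases, Pdp2 was above 0 in both genotypes, at 1.45 in KO-labelled and 1.59 in WT skin, where Pdp1 was at -1.996 and -1.57. The muscle glycogen phosphorylase Pygm, one of the muscle markers, differed by 0.18 and 0.07.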
